A study of Mus musculus with 67 samples.

Results

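The 50 genes described here code for the subunits, assembly chaperones, activators and inhibitor of the proteasome. They are all rows of the deposited table of 26414 genes whose symbol begins with Psm, a letter from a to g and a digit, with entries named as pseudogenes left out. The list holds 7 genes of the alpha ring and 7 of the beta ring of the 20S core, 5 tissue-restricted 20S subunits, 6 ATPases and 11 other subunits of the 19S cap, 7 assembly chaperones, and 6 activators and inhibitors. The pattern also takes in Psmc3ip, a factor of meiotic recombination that is no part of the proteasome. The other 49 members are subunits of the proteasome or factors that assemble, activate or inhibit it. RNA of C57BL/6 mouse preimplantation embryos was measured by SMART-seq2, in 33 control and 34 light libraries. Light embryos spent 6 h at the 2-cell stage under 5000 lx and were then kept in the dark, and control embryos were not put under this light. Control libraries numbered 7 (2-cell), 6 (4-cell), 4 (8-cell), 13 (morula) and 3 (blastocyst), and light libraries 6, 8, 8, 6 and 6 in the same order. The labels number embryos, whereas the methods describe single cells picked from dissociated embryos, so libraries of a group may share an embryo and p-values measure only the spread between libraries. A library may thus hold RNA of 1 cell or several, and fewer cells and less RNA per cell cannot be told apart.

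The proteasome breaks down proteins that have been tagged with ubiquitin. Its 20S core is a barrel of stacked alpha and beta rings that encloses the catalytic sites, and the 19S cap recognises, unfolds and feeds in the substrate with a ring of ATPases. Other activators can take the place of the cap: Psme1 and Psme2 form the PA28 alpha-beta complex, Psme3 forms the nuclear PA28 gamma complex and Psme4 is PA200. In early embryos the pathway removes maternal proteins inherited from the oocyte, while maternal RNA is lost and the embryo's own genome is switched on.

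Each deposited value is a read number scaled by 1 factor per library, so values compare libraries for 1 gene. Total reads per library lay between 836011 and 8551674. Between 54.0% and 89.3% of them were on the rRNA-like genes CT010467.1 and Gm42418, which left 318177 to 2867034 reads on other genes. The ratio of Gm42418 to CT010467.1 reads was 2.34 to 4.03 in control 2-cell libraries and 1.58 to 1.77 in light 2-cell libraries, and the ranges were also apart at the 8-cell and morula stages. Preparation and light can therefore not be told apart. In controls the ratio also lay apart between stages, at 2.3439 to 4.14 in morulae and 1.42 to 1.45 in blastocysts. Control 8-cell libraries had 2.01 to 2.3438, just below the morulae. No control 4-cell library lay within the range of the control 2-cell or 8-cell libraries. Preparation and stage can thus not be told apart in any of the control steps or in the interactions, which all use them. Control 4-cell library 3 had a median Spearman correlation across genes of 0.822 with the light 4-cell libraries and of 0.767 with the other control 4-cell libraries. Counts of members called in comparisons with control 4-cell libraries are also given without it. Control 4-cell libraries 2, 4 and 6 were also closer to light, by less (0.705 against 0.700, 0.775 against 0.769 and 0.781 against 0.776). Libraries 1 and 2 correlated least with the other controls (0.698 and 0.700), and their Gm42418 to CT010467.1 ratios were 4.55 and 4.35. In control 4-cell libraries 3 to 6 this ratio was 1.61 to 1.98. All 7 oocyte markers and all 6 markers of the 2-cell stage were detected at the 2-cell stage in both groups, and the 7 trophectoderm markers were all detected in blastocysts. Detection does not separate the stages. All 7 oocyte markers were also detected in morulae, all 6 markers of the 2-cell stage in control blastocysts, and all 7 trophectoderm markers in light 2-cell libraries.

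Summed over their genes, the 20S core and the 19S cap were lowest at the 2-cell stage in controls. Together the 14 standard 20S genes took 0.0357% to 0.0744% (median 0.0498%) of reads outside the rRNA-like genes in the 7 control 2-cell libraries, and 0.0766% to 0.199% (median 0.129%) in the 6 light 2-cell libraries. Each light library lay above each control library. In 4-cell embryos the share was 0.249% to 0.499% in control and 0.235% to 0.336% in light libraries, so that the ranges overlapped. In 8-cell embryos it was 0.187% to 0.229% in control and 0.259% to 0.358% in light libraries, which did not overlap. Morulae gave 0.279% to 0.631% in control and 0.421% to 0.560% in light, and blastocysts 0.292% to 0.396% and 0.265% to 0.704%, with overlap in both. The 17 genes of the 19S cap that match the pattern followed the same order up to the 8-cell stage. They had 0.0648% to 0.104% in control and 0.138% to 0.306% in light 2-cell libraries, then 0.335% to 0.636% and 0.336% to 0.474% in 4-cell embryos, and 0.286% to 0.340% and 0.432% to 0.548% in 8-cell embryos. Morulae gave 0.305% to 0.592% and 0.434% to 0.668%, and blastocysts 0.272% to 0.509% and 0.428% to 0.581%. In controls the highest median was at the 4-cell stage for the cap (0.495%) and in morulae for the core (0.415%). Adrm1 and Sem1, proteasome genes outside the pattern, are not among the 17. These sums are descriptions and carry no test.

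**Figure D1:**
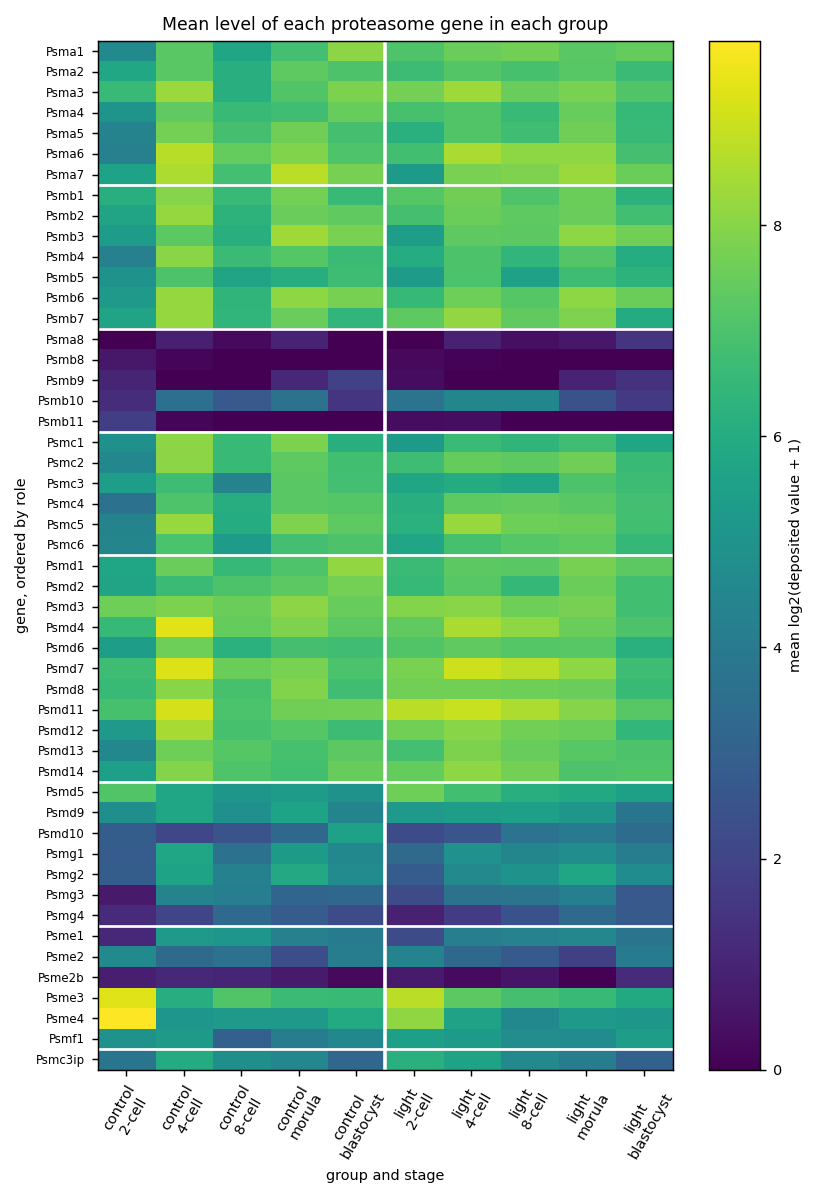
Mean level of the 50 genes in the 10 groups, as log2 of the deposited value plus 1. Genes are rows ordered by role, with white lines between roles, and groups are columns; most subunit rows are darkest in control 2-cell embryos, while Psme3 and Psme4 are brightest there and the tissue-restricted subunits other than Psmb10 are dark in every group.

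Subunits of 1 ring are needed in equal numbers, but their RNA levels per transcript length were not equal. Per kilobase, the highest mean of the 14 standard 20S genes was 3.77 times the lowest in control 2-cell embryos, where Psmb2 reached 69.5 and Psma5 18.4. The ratio was 7.62 in control 4-cell embryos, between Psmb6 (444 per kilobase) and Psma2 (58.2), and 9.43 in control morulae, between Psma7 (528) and Psma3 (56.0). Psma2, an alpha-ring subunit, was the lowest per kilobase in 8 of the 10 groups. The order rests on the transcript length used, which was 2911 bases for Psma2 and 2846 for Psma3 and 766 to 1758 for the other genes. The highest place was taken by Psma6 in light 2-cell and light 4-cell embryos and in control 8-cell embryos, by Psma7 in light 8-cell embryos, and by Psmb3 in light morulae and in blastocysts of both groups.

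Between the 2-cell and the 4-cell stage, values of nearly all core and cap subunits rose in control libraries. Values are scaled within each library, so the amount of RNA per embryo was not measured. Of the 50 genes, 47 passed the filter on low values, and 34 rose and 2 fell by limma (adjusted p under 0.05, fold change 2 or more), where 46.1% of all 17725 genes tested were called, 13.8% as higher and 32.3% as lower. The median log2 fold change was 2.29 over the members and -0.72 over all genes. All 7 alpha-ring and all 7 beta-ring genes rose, with 5 of 6 ATPases, 9 of 11 other cap subunits, 3 of 7 chaperones, Psme1, Psmb10 and Psmc3ip. The stages did not overlap for 17 of the genes that rose and for both that fell, where 4.45% and 16% of all genes were apart in these directions.

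Psma6, a subunit of the alpha ring, had values of 0 to 96.5 (median 27.4) in the 7 control 2-cell libraries and 222 to 764 (median 449.99) in the 6 control 4-cell libraries. No library of one stage reached the range of the other, and the log2 fold change was 4.49 (SE 0.74, limma adjusted p = 4.4e-05). Psmc5, an ATPase of the cap, went from 1.38 to 69.1 (median 30.4) in the 2-cell libraries to 129.7 to 508 (median 348) in the 4-cell libraries, also with no overlap, a log2 fold change of 3.85 (SE 0.66, adjusted p = 6.1e-05). Psme1, a subunit of PA28 alpha-beta, was listed at 0 in 4 of 7 control 2-cell libraries with a highest value of 5.51, and had 1.52 to 120.2 (median 66.6) in control 4-cell libraries. The ranges of Psme1 overlapped, and its log2 fold change was 4.21 (SE 0.87, adjusted p = 0.00048). Without strand, reads of Psme1 cannot be told from those of the antisense gene Emc9 that overlaps it.

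The 2 genes that fell were the nuclear activators. Psme4 had 696 to 1303 (median 795) in control 2-cell embryos and 12.5 to 115 (median 30.0) in control 4-cell embryos. Its log2 fold change was -4.61 (SE 0.45, limma adjusted p = 4.9e-08). Psme3 went from 447 to 1007 (median 638) to 32.0 to 130.4 (median 76.6), a log2 fold change of -3.21 (SE 0.36, adjusted p = 3.7e-07). For both genes each 4-cell library lay below each 2-cell library. Without control 4-cell library 3 the count of called members in this step was 35 in place of 36.

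In light embryos the same step gave 14 members higher and 2 lower of 47 tested, where 36.5% of 17258 genes were called, 7.43% as higher and 29% as lower. Over the members the median log2 fold change was 0.70, and over all genes -0.56. By edgeR 26 members were called in this step, 24 of them higher, and these medians were 1.06 and -0.28. The shares of all genes above are those of limma, and the share by edgeR is not given here. The count of 26 can thus not be set against it. Psma7, an alpha-ring subunit, had 22.1 to 106 (median 33.6) in light 2-cell libraries and 124 to 340.5 (median 221) in light 4-cell libraries, with no overlap and a log2 fold change of 2.47 (SE 0.35, limma adjusted p = 2.9e-06). Psmc5 gave 2.02 (SE 0.40, adjusted p = 0.0002) and Psme1 1.94 (SE 0.67, adjusted p = 0.023), with overlapping ranges; the call of Psme1 was lost without light 2-cell library 10 or 14. Psme4 and Psme3 were again the members that fell, with log2 fold changes of -2.52 (SE 0.35, adjusted p = 1.9e-06) and -1.47 (SE 0.25, adjusted p = 3.1e-05), and ranges that did not overlap.

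The change from the 2-cell to the 4-cell stage differed between light and control for 10 of the 50 genes by limma's interaction term, where 3.07% of 20395 genes were called, 1.45% with a negative and 1.63% with a positive difference. The difference, light minus control, was negative for 8 of them, which all rose in control and were not called in light on the deposited values. They were the alpha-ring genes Psma4 and Psma5, the beta-ring genes Psmb2 and Psmb4, the ATPase gene Psmc2, the lid genes Psmd11 and Psmd12, and Psmc3ip. In light, Psmb4 and Psma5 were called higher under median ratio scaling, CPM and edgeR (1.34 and 1.29 on the log2 scale by edgeR). Psmb2 (1.01 by edgeR) and Psmc2 (1.06) were called higher in light under CPM and edgeR. The largest differences were those of Psmd12 (-2.84 on the log2 scale, SE 0.71, adjusted p = 0.023) and Psmb4 (-2.80, SE 0.69, adjusted p = 0.022). The difference was positive, with a smaller fall in light, for Psme4 (2.08, SE 0.58, adjusted p = 0.037) and Psme3 (1.74, SE 0.43, adjusted p = 0.022). Psmd12 in light embryos had 97.1 to 390.5 (median 204) at the 2-cell stage and 192 to 400.05 (median 241) at the 4-cell stage, which overlapped, whereas in control embryos it had 1.59 to 90.6 (median 82.1) and 220.2 to 470.2 (median 365). The count of 10 ranged from 5 without light 2-cell library 12 to 16 without control 4-cell library 2, and was 12 without control 4-cell library 3. The call of Psme4 was lost without any 1 of 13 libraries. The interaction is the same contrast as whether the difference between light and control differs between these stages. Apart from Psmb2, the genes with a negative difference were also called higher in light at the 2-cell stage, and Psme4 was called lower there. These results share libraries and are not independent of each other.

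**Figure D2:**
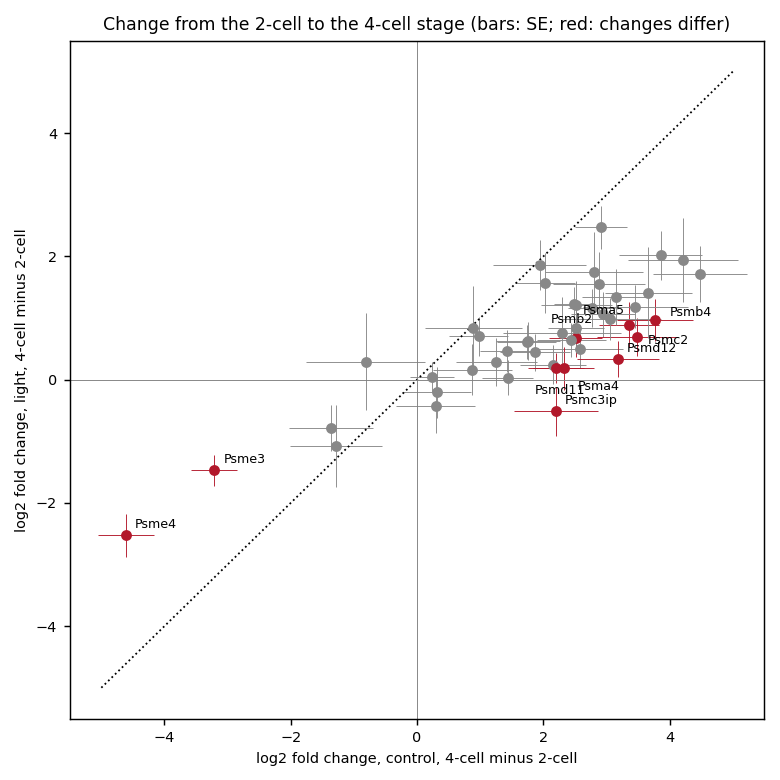
Log2 fold change from the 2-cell to the 4-cell stage in control (horizontal axis) and light embryos (vertical axis), 1 point per gene tested in both, with bars for the SE and a dotted line of equal change. Red points are the genes whose changes differed between the groups; Psme3 and Psme4 lie at the lower left and the other 8 lie below the line of equal change.

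Promoters of these genes were read from RefSeq (GRCm38.p6), as 250 bases before to 50 after the start site, and 42 of the 50 members were matched by symbol. The letters CCGGAA on either strand, the core of the ETS motif, were found in 21 of the 42 members (50%). They were found in 16.7% of all 27025 genes with a promoter. Of the 11369 such genes tested from the 2-cell to the 4-cell stage in controls, 29% held them. These letters were present in 3 of 7 alpha-ring genes, 1 of 4 beta-ring genes, 4 of 5 ATPase genes, 6 of 9 other cap genes and 3 of 6 activator and inhibitor genes, and in none of the 4 tissue-restricted genes matched. The letters TGACNNNGC, the antioxidant response element, were found in 6 members (14.3%, against 14% of all genes and 16.8% of those tested). CCAAT was found in 15 (35.7%, against 41.1% and 43.4%). A match is a run of letters and no measured site. The 250 bases before the start site are shown for 2 genes that rose and 2 that fell between the 2-cell and the 4-cell stage, all on the plus strand of GRCm38.p6, 5′ to 3′, with CCGGAA or its reverse complement in capitals; they were chosen after their values were seen. The capitals that end the Psma6 sequence are the start of a match that runs past the start site. RefSeq gives Psma6 another start site as well, whose promoter from base 55383972 on holds 0 matches and is not shown. Psma6 as shown lies at chr12:55398575-55398824, Psmd12 at chr11:107479278-107479527, Psme3 at chr11:101315963-101316212 and Psme4 at chr11:30771525-30771774.
Psma6: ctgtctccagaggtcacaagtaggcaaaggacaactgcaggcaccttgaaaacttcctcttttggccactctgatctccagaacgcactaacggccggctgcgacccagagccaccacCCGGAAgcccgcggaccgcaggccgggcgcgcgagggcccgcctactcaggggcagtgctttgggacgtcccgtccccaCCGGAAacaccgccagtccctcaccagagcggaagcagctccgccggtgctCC
Psmd12: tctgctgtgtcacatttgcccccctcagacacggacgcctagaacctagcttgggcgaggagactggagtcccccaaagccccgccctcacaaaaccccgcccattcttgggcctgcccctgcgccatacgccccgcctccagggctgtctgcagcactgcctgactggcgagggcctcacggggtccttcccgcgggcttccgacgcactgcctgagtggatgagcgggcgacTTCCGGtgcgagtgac
Psme3: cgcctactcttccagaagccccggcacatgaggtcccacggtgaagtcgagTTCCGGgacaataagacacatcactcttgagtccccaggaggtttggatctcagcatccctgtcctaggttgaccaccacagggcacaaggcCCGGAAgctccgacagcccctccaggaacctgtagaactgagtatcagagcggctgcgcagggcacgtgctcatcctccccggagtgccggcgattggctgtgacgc
Psme4: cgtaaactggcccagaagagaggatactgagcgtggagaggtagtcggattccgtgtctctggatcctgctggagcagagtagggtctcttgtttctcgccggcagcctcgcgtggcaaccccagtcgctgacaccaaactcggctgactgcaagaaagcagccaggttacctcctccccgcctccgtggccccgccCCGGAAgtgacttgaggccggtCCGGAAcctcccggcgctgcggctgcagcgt
Other genes that rose, such as Psma1 and Psma7, hold no match in this window.

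Light was compared with control at the 2-cell stage, the stage of exposure. Of 49 members tested, 16 were higher in light, 15 of them core or cap subunits, and 1 was lower by limma, where 10.5% of 18532 genes were called, 5.53% as higher and 4.96% as lower. The median log2 fold change was 1.06 over the members and 0.00 over all genes tested. The higher genes were Psma1, Psma4, Psma5 and Psma6 of the alpha ring, Psmb4 and Psmb7 of the beta ring, Psmc2 and Psmc4 of the ATPases, 7 other cap genes (Psmd6, Psmd7, Psmd8, Psmd11, Psmd12, Psmd13 and Psmd14) and Psmc3ip, so that 4 of 7, 2 of 7, 2 of 6 and 7 of 11 genes of these roles passed. Antisense genes overlap Psma4, Psmb7, Psmd13 and Psmc3ip, and without strand their reads cannot be told apart. None of the 7 chaperones and none of the 4 tissue-restricted genes tested passed. This comparison shares its control libraries with the step from the 2-cell to the 4-cell stage in controls. It shares all its libraries with the interaction of that step, so the results are not independent of each other.

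Psma6 had 19.4 to 403 (median 186) in light 2-cell libraries against 0 to 96.5 in controls. Light libraries with 19.4 and 28.4 lay within the control range, and the log2 fold change of 2.56 (SE 0.77, limma adjusted p = 0.028) lost its call without any 1 of 6 libraries, at a pseudocount of 0.1 and without the filter on low values. Psmc4, an ATPase of the cap, had 3.45 to 40.6 (median 6.95) in control and 42.7 to 127 (median 58.4) in light, with no overlap, and a log2 fold change of 2.53 (SE 0.58, adjusted p = 0.0046). Psmc3ip had 2.07 to 30.4 (median 19.3) in control and 50.5 to 139 (median 68.0) in light, with no overlap, and a log2 fold change of 2.39 (SE 0.60, adjusted p = 0.0085). Psma1, Psmd12 and Psmd14, which codes for the deubiquitinase of the cap, were also higher in each light library than in each control library, so that 5 members did not overlap in this direction, where 1.66% of all genes did so. Psmc4 and Psmc3ip kept their calls under all 5 other settings and without each single library.

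Psme4 went the other way. It had 696 to 1303 (median 795) in control 2-cell embryos and 183 to 370.4 (median 276) in light 2-cell embryos, with no overlap where 2.49% of all genes lay apart in this direction, and a log2 fold change of -1.61 (SE 0.25, limma adjusted p = 0.00011). Its call held under all 5 other settings and without each single library. Psme3 had 447 to 1007 in control and 348 to 624 (median 391) in light, and its log2 fold change of -0.55 (SE 0.25, adjusted p = 0.17) did not pass. The oocyte markers, RNAs that are lost as the embryo develops, moved with these values: the 7 of 7 genes summed to 1893 to 4347 CPM in control and 545 to 1776 CPM in light 2-cell libraries, with none at 0 throughout and no overlap. Their part in the result was not tested. The count of 17 was between 11, without light library 10, 12 or 14, and 23.

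**Figure D3:**
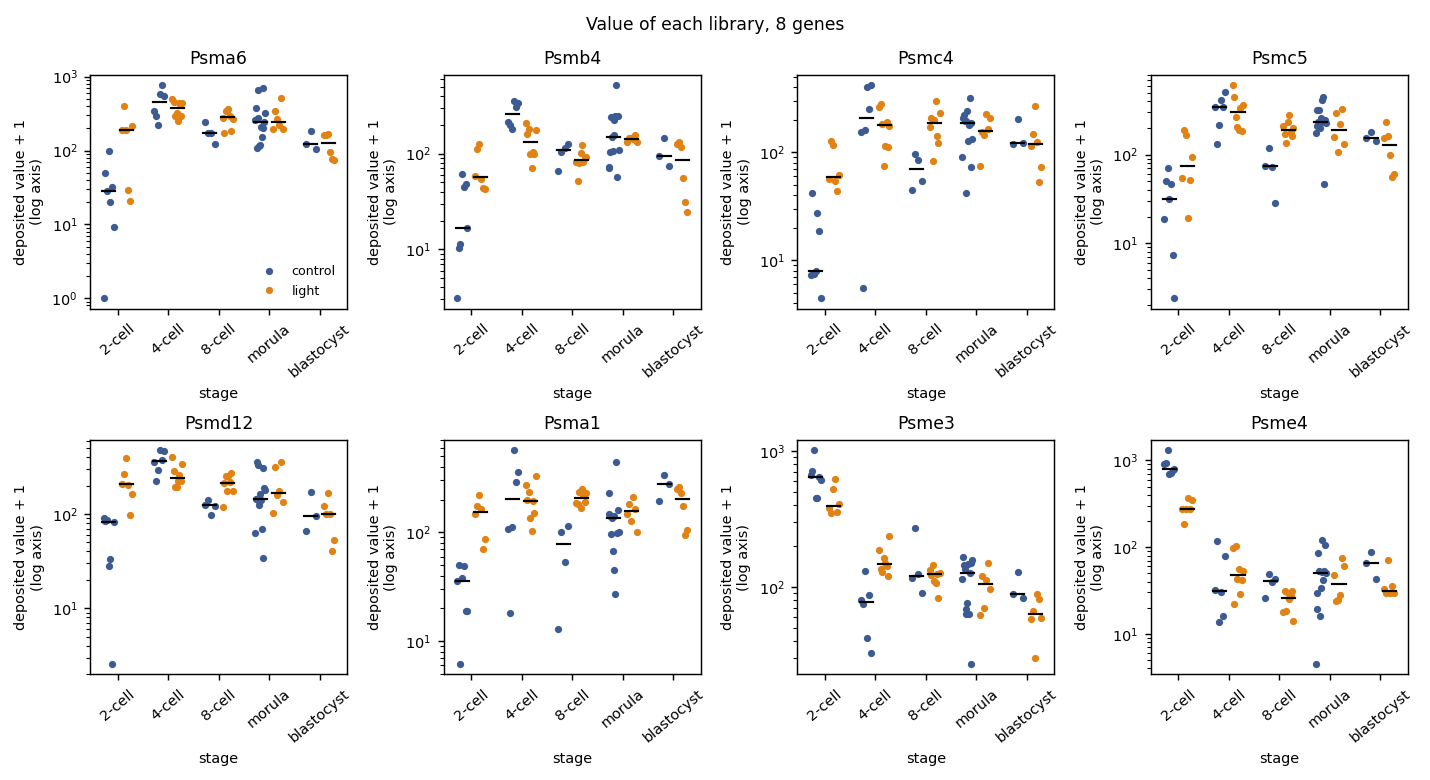
Deposited value plus 1 of every library (points, log axis) by stage for 8 members, control in blue and light in orange, with a black line at the median of each group. At the 2-cell stage the light values of Psma1, Psmc4 and Psmd12 lie above those of the controls and those of Psme4 below, and Psme3 and Psme4 drop from the 2-cell to the 4-cell stage in both groups.

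At the 4-cell stage no member was called in the comparison of light with control (47 tested, 6 with an unadjusted p under 0.05), where 1.45% of 15010 genes were called by limma, and edgeR on the recovered reads called 2, Psmb4 and Psmc1, both lower. Over the members the median was -0.21 and over all genes 0.13. Psmc1, an ATPase of the cap, had 79.8 to 735 (median 303) in control and 68.4 to 138 (median 95.5) in light libraries, which overlapped. Without control library 3, limma called 4 members: Psmb4 (-1.09 on the log2 scale, adjusted p = 0.047), Psmc1 (-1.75, adjusted p = 0.0073) and Psme1 (-1.90, adjusted p = 0.042) were lower and Psme3 was higher (1.39, adjusted p = 0.017). Without control library 1 it called 1. The 1.45% of all genes is the share with all libraries, and shares without a library are not given here.

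At the 8-cell stage 9 core and cap genes were higher in light. Of the 45 members tested none was lower, where 9.21% of 13861 genes were called by limma, 5.91% as higher and 3.3% as lower. The 9 were Psma1, Psma3 and Psma7 of the alpha ring, Psmb3 of the beta ring, Psmc4, Psmc5 and Psmc6 of the ATPases, and the lid genes Psmd7 and Psmd11. Over the 45 members tested the median log2 fold change was 0.71, against 0.16 over all genes, and 10 members did not overlap between the groups, all higher in light, where 3.31% of all genes did so. Those called at both the 2-cell and the 8-cell stage were Psma1, Psmc4, Psmd7 and Psmd11, which is 4 of the 17 called at the first and 4 of the 9 at the second.

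Psma1 had 12.0, 100.6, 52.2 and 114 in the 4 control 8-cell libraries and 168 to 252 (median 205) in the 8 light libraries. No control library reached the light range, and the log2 fold change was 1.95 (SE 0.41, limma adjusted p = 0.0033). Psmc6 had 69.4, 66.6, 17.4 and 35.5 in control and 85.6 to 239 (median 139) in light, a log2 fold change of 1.78 (SE 0.37, adjusted p = 0.0033). Psmc5 had 74.0, 118, 72.0 and 27.1 in control and 134 to 278 (median 189) in light, a log2 fold change of 1.55 (SE 0.33, adjusted p = 0.0036). None of these genes overlapped between the groups, and their calls held under all 5 other settings and without each single library. Oocyte markers summed to 182 to 302 CPM in control and 52.2 to 167 CPM in light 8-cell libraries, and the 6 markers of the 2-cell stage to 117 to 452 CPM and 2.74 to 171 CPM. Their part in the result was not tested. The count of 9 was between 7 and 12 with single libraries left out.

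In morulae no member was called (48 tested, 1 with an unadjusted p under 0.05, 0 by edgeR), where 1.18% of 15217 genes were called by limma. Members had a median log2 fold change of 0.01, and all genes of 0.10. In blastocysts 1 of 48 members was called, where 5.34% of 12743 genes were, 4.98% as lower. That gene was Psmd10, a chaperone of the assembling cap also known as gankyrin, with 41.4, 44.2 and 57.1 in the 3 control libraries and 4.42 to 25.0 (median 10.2) in the 6 light libraries. Its groups did not overlap, and its log2 fold change was -2.16 (SE 0.60, limma adjusted p = 0.038). The call was lost under all 5 other settings and without any 1 of 7 of the 9 libraries. The median log2 fold change over the members was -0.36 beside -0.64 over all genes, and it turned to between 0.34 and 0.39 under median ratio scaling, CPM and edgeR. The 7 trophectoderm markers summed to 896 to 8092 CPM in control and 9357 to 13581 CPM in light blastocysts. The 6 inner cell mass markers went the other way by median, with 387 to 2362 CPM (median 1303) in control and 301 to 546 CPM (median 479) in light. The 5 primitive endoderm markers had 113 to 1156 CPM (median 393) and 234 to 436 CPM (median 283). Ranges overlapped for both of these lists. The part of cell type in the values of the members was not tested.

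**Figure D4:**
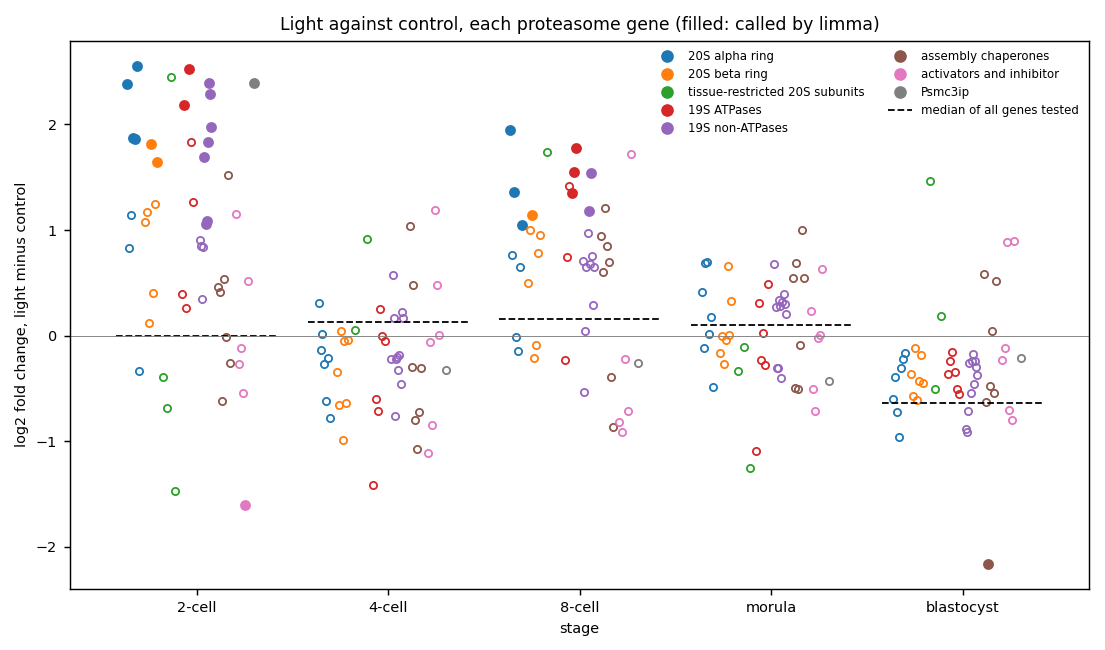
Log2 fold change of light minus control for each member tested at each stage, coloured by role, with filled points for genes called by limma and a dashed line at the median of all genes tested. The 16 genes called higher at the 2-cell stage and the 9 at the 8-cell stage lie above 1, and Psme4 at the 2-cell stage and Psmd10 in blastocysts are the members called lower.

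After the 4-cell stage fewer members changed. From the 4-cell to the 8-cell stage in controls, 12 of 47 members fell and none rose by limma, where 6.31% of 13425 genes were called, 5.17% as lower. The largest falls were those of Psmc5 (-2.20 on the log2 scale, SE 0.48, adjusted p = 0.0084), Psma3 (-2.14, SE 0.47, adjusted p = 0.0088) and Psmd11 (-2.12, SE 0.44, adjusted p = 0.0061). The median was -1.13 over the members and -0.56 over all genes, and no member was called under median ratio scaling, CPM or edgeR. The 6 markers of the 2-cell stage summed to 11.8 to 97.4 CPM in control 4-cell and 117 to 452 CPM in control 8-cell libraries, with Zscan4c at 0 in all of the former, and their part in this step and in the interaction was not tested. The count was 6 without control 8-cell library 3, 19 without control 4-cell library 1 and 15 without control 4-cell library 3. In light the same step gave 2 members lower of 46, Psmb5 (-1.39, SE 0.29, adjusted p = 0.0016) and Psme4 (-1.07, SE 0.36, adjusted p = 0.044), where 10.6% of 15178 genes were called, 9.94% as lower, and both calls were lost under those 3 scalings.

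This step differed between light and control for 5 of 47 members by the interaction term, all with a positive difference of light minus control, where 3.8% of 16987 genes were called by limma, 1.7% in this direction. Psma7 had 173 to 579 (median 415) in control 4-cell libraries and 120.3, 154, 70.8 and 120.6 in control 8-cell libraries, which did not overlap. In light libraries it had 124 to 340.5 at the 4-cell stage and 161 to 403 (median 213) at the 8-cell stage, which overlapped. The difference between the changes was 1.82 (SE 0.44, adjusted p = 0.014). Psmd11 gave 1.73 (SE 0.44, adjusted p = 0.018), a call lost without control 8-cell library 3, and the others were Psmb2, Psmd4 (the ubiquitin receptor of the cap) and Psmd7. The count was 3 without control 8-cell library 3, 8 without control 4-cell library 1, 12 without library 2 and 10 without library 3 of that group. Psma7, Psmd7 and Psmd11 were also called higher in light at the 8-cell stage, a comparison that shares its libraries with this interaction.

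From the 8-cell stage to the morula in controls, 10 of 48 members rose and none fell, where 14.3% of 14966 genes were called by limma, 6.84% as higher. Psmc3, an ATPase of the cap, had 1.85, 34.6, 38.3 and 42.6 in control 8-cell libraries and 55.1 to 338 (median 168) in the 13 control morulae, with no overlap and a log2 fold change of 2.90 (SE 0.56, adjusted p = 0.00068). Psmb3 gave 2.19 (SE 0.39, adjusted p = 0.00027) and Psma7 1.93 (SE 0.37, adjusted p = 0.00061), also with no overlap. Without strand, reads of Psmc3 cannot be told from those of the antisense gene Slc39a13 that overlaps it. Of the 10, 5 were beta-ring genes, and the count was 6 without any 1 of the 4 control 8-cell libraries. In light 2 of 45 rose, Psmc3 (1.25, SE 0.36, adjusted p = 0.021) and Psmb5 (1.14, SE 0.30, adjusted p = 0.012), and Psmb10 fell, where 11.8% of 14414 genes were called, 4.61% as higher and 7.22% as lower; without light morula library 6 the call of Psmc3 was lost. The step did not differ between the groups for any of 48 members (12 with an unadjusted p under 0.05, 1 called by edgeR), where 2.62% of 17431 genes were called by the interaction term in limma.

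From the morula to the blastocyst, 1 of 48 members fell in controls, Psmc1 (-1.68, SE 0.52, limma adjusted p = 0.033), where 11.9% of 14972 genes were called, 5.11% as lower; the call was lost by edgeR and without control blastocyst library 1 or 3. In light 10 of 48 fell and 1 rose, where 20.7% of 13553 genes were called, 5.02% as higher and 15.7% as lower. Psmb7, the trypsin-like subunit, had 124 to 361 (median 247) in light morulae and 28.0 to 132 (median 68.4) in light blastocysts, ranges that met in a single pair of libraries, and a log2 fold change of -1.87 (SE 0.38, adjusted p = 0.00052). Psmd9, a chaperone of the cap, gave -1.39 (SE 0.50, adjusted p = 0.044), a call lost under all 5 other settings, and Psmd7 -1.34 (SE 0.34, adjusted p = 0.0048). Without strand, reads of Psmd9 cannot be told from those of the antisense gene Gm26745 that overlaps it. Psme2, the other subunit of PA28 alpha-beta, was the gene that rose, from 0 to 9.34 (median 3.56) to 7.36 to 22.1 (median 17.4), a log2 fold change of 2.14 (SE 0.67, adjusted p = 0.021). Under median ratio scaling, CPM and edgeR only Psmb7 was lower and Psme2, Psme2b and Psmf1 were higher, with Psma1 also higher under median ratio scaling. Without light morula library 3 or 5 the call of Psme2 was lost, and the count of 11 was 4 without light blastocyst library 29. The step did not differ between the groups for any of 48 members (5 with an unadjusted p under 0.05), where 1.57% of 16855 genes were called, and edgeR called none either.

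Of the tissue-restricted subunits, Psma8, Psmb8, Psmb9 and Psmb11 had a median at or under 4.52 in every group. Psmb8, Psmb9 and Psmb10 replace the catalytic subunits Psmb5, Psmb6 and Psmb7 in the immunoproteasome of immune cells, Psmb11 belongs to the proteasome of the thymus and Psma8 to that of the testis. Psma8 had no read in any of the 13 libraries of the 2-cell stage, which allows up to between 1.05 and 9.43 CPM outside the rRNA-like genes in a library (3 reads, counting error only). Its highest value was 27.5, in a control morula. Psmb8 had a read in 6 of the 27 libraries of the 2-cell and 4-cell stages, with a highest value of 2.61, and in none of the 40 libraries of the later stages, which allows up to between 1.34 and 6.61 CPM. Psmb11 was likewise without a read in those 40, and had 0 to 28.7 (median 3.13) in control and 0 to 2.80 in light 2-cell embryos. Psmb9 had no read in the 26 libraries of the 4-cell and 8-cell stages, 0 to 12.4 in control 2-cell embryos and 0 to 25.3 in light morulae. Reads of Psmb8 and Psmb9 cannot be told from those of the antisense genes Gm20496 and Tap1 that overlap them, since SMART-seq2 does not mark the strand.

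Psmb10 had reads in all groups, though not in each control library. It had 0 to 8.97 (median 1.19) in control and 2.27 to 31.8 (median 16.6) in light 2-cell embryos, and 17.6, 1.60, 8.13 and 3.34 in control against 8.93 to 31.8 (median 21.4) in light 8-cell embryos. The groups overlapped at both stages, and the log2 fold changes of 2.45 (SE 0.85, limma adjusted p = 0.058) and 1.74 (SE 0.61, adjusted p = 0.071) did not pass. In control embryos it rose from the 2-cell to the 4-cell stage by 2.29 on the log2 scale (SE 0.93, adjusted p = 0.048). In light embryos it fell by 2.06 from the 8-cell stage to the morula (SE 0.55, adjusted p = 0.012), where it had 1.26 to 13.3 (median 4.02), and this call was lost by edgeR. The 4 of 6 leukocyte markers that the table holds summed to 7.99 to 52.9 CPM in control and 3.08 to 50.4 CPM in light 2-cell libraries, and their part in the values of Psmb10 was not tested.

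**Figure D5:**
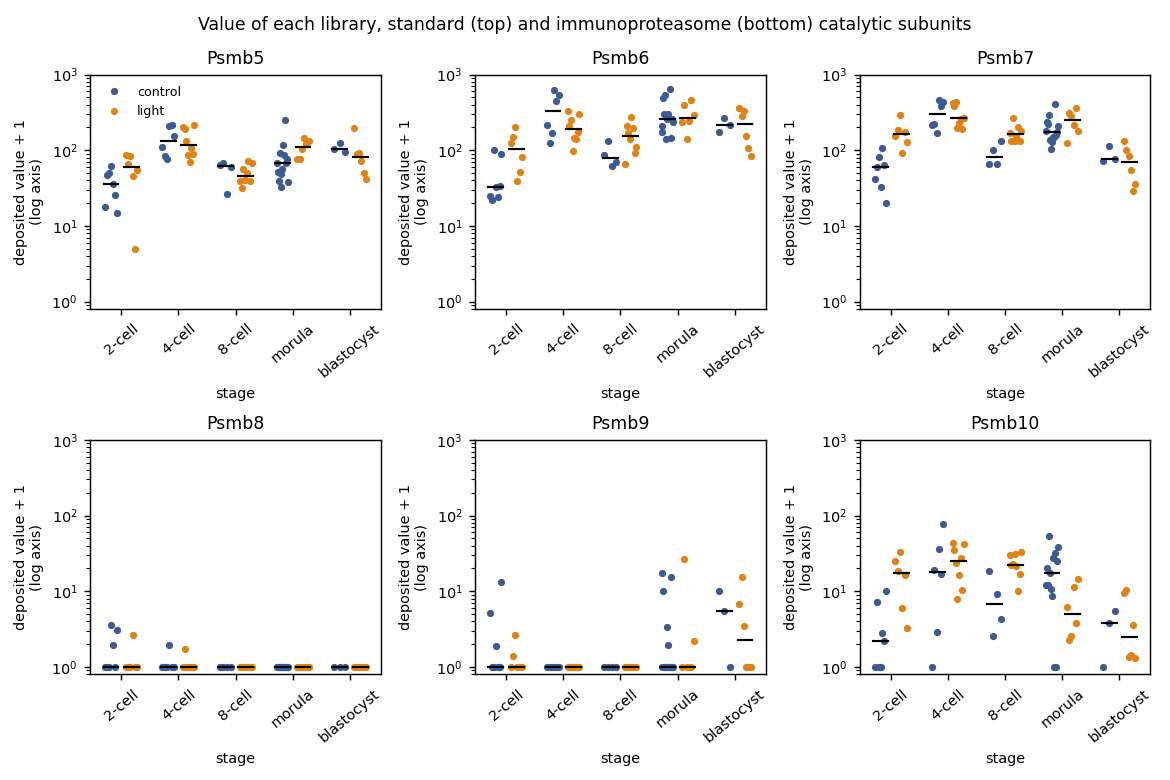
Deposited value plus 1 of every library (points, log axis of the same range in all panels) by stage for the standard catalytic subunits Psmb5, Psmb6 and Psmb7 and the immunoproteasome subunits Psmb8, Psmb9 and Psmb10, control in blue and light in orange, lines at the medians. The standard subunits hold reads in every library, Psmb8 is at 0 from the 8-cell stage on, and Psmb10 has reads in most libraries.

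Of the 3 standard catalytic genes, only Psmb7 passed in light against control at the 2-cell stage. Psmb5, the chymotrypsin-like subunit, had 13.8 to 59.98 (median 34.9) in control and 3.89 to 85.5 (median 59.1) in light 2-cell libraries, and its log2 fold change of 0.40 (SE 0.59, limma adjusted p = 0.72) did not pass. Psmb6, the caspase-like subunit, had 20.8 to 100.5 (median 32.2) and 38.4 to 201 (median 102), a log2 fold change of 1.25 (SE 0.49, adjusted p = 0.094) that did not pass either. Psmb7 had 19.3 to 106 (median 59.4) and 91.8 to 293 (median 161), and passed with 1.64 (SE 0.41, adjusted p = 0.0085). Whether these changes differ from gene to gene was not tested.

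Of the chaperones, 3 of 7 rose from the 2-cell to the 4-cell stage in controls. Psmg1 and Psmg2, partners that help the alpha ring assemble, and Psmg3, a partner of Psmg4 in the same task, rose by 2.88 (SE 0.73), 2.81 (SE 0.78) and 3.66 (SE 0.69) on the log2 scale, with limma adjusted p = 0.0027, 0.0055 and 0.00017. Psmg3 was listed at 0 in 4 of 7 control 2-cell libraries, with a highest value of 10.4, and had 11.8 to 32.0 (median 20.9) in control 4-cell libraries, which did not overlap. Psmg4 had 0 to 3.97 and 0 to 18.9 and did not pass. Of the chaperones of the cap, Psmd5 had 93.1 to 264 (median 129) in control 2-cell and 2.56 to 174 (median 88.1) in control 4-cell libraries, and neither it nor Psmd9 nor Psmd10 passed in this step. Psmf1, the inhibitor PI31, had 8.34 to 57.3 (median 31.3) in control and 13.6 to 85.1 (median 50.3) in light 2-cell libraries and was not called in any of the 17 comparisons on the deposited values. Psme2b is a near copy of Psme2, and reads could be split between them, so that values of both are uncertain; it had at most 10.2 in any library.

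Genes of the pathway outside the pattern were mixed. Of a list of 29 ubiquitin and proteasome genes, 28 were in the table and all 28 were tested. Of all genes, 10.5% of those tested in 2-cell embryos were called in light against control, 1.45% in 4-cell embryos, 9.21% in 8-cell embryos and 5.34% in blastocysts. Of the list, 5 were higher in light at the 2-cell stage, among them Zfand5, a factor that stimulates the proteasome (1.60 on the log2 scale, SE 0.30, limma adjusted p = 0.00062), and Vcp, an ATPase that extracts ubiquitin-tagged proteins (1.65, SE 0.37, adjusted p = 0.0036), and 1 was lower, the ubiquitin ligase Ube3c (-1.06, SE 0.34, adjusted p = 0.040). At the 4-cell stage Zfand5 (2.16, SE 0.46, adjusted p = 0.018) and the shuttle factor Ubqln1 (1.52, SE 0.36, adjusted p = 0.035) were higher. At the 8-cell stage Usp14, a deubiquitinase bound to the cap (1.95, SE 0.52, adjusted p = 0.018), and the ubiquitin gene Ubb (1.07, SE 0.26, adjusted p = 0.010) were higher and Zfand5 was lower (-1.25, SE 0.34, adjusted p = 0.022). None passed in morulae, and in blastocysts Uba1, the main ubiquitin-activating enzyme (-2.21, SE 0.34, adjusted p = 0.0011), and Ubqln2 (-2.12, SE 0.52, adjusted p = 0.023) were lower. From the 2-cell to the 4-cell stage 10 of the 28 rose and 10 fell in controls, where 13.8% of all genes rose and 32.3% fell, and 4 rose and 8 fell in light, where 7.43% rose and 29% fell.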

How the data were processed

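RNA of 67 mouse embryo libraries was measured by SMART-seq2. The authors aligned and counted reads (HISAT2 and HTSeq 0.9.1 and the build mm9 are named in the submitters' processing notes) and deposited signal values, in which reads are scaled by 1 factor per library. Whole reads were recovered for at least 99.95% of values per library (tolerance 0.01). No column was left unmapped. The 50 members and all lists were chosen with earlier results of these data known. Values were compared in limma 3.58.1 (lmFit, eBayes with trend; R 4.3.3) as log2(value + 1), so that fold changes of low genes are understated, for genes whose value exceeded 1 in 3 or more of these libraries, with Benjamini-Hochberg adjustment over all of them. Calls needed an adjusted p under 0.05 with a fold change of 2 or more. Shares of all genes called are those of this fit with all libraries. The design foresaw RPKM, and this test was kept. There were 17 comparisons: light against control in 5 stages, 8 steps between stages and 4 interactions. In each, up to 3 members called with the largest rise and fall (2 for interactions) are named, and the catalytic, tissue-restricted, chaperone and activator genes throughout. Transcript lengths and overlapping genes were taken from GENCODE M21, which holds 99.7% of the symbols, with the median over principal transcripts as length. CPM were computed outside the 2 rRNA-like genes. The closest pair of libraries in each group had a chi-square per degree of freedom of at least 6.64, more than counting noise. Alternatives were a pseudocount of 0.1, no filter, median ratio scaling (6654 genes), CPM, edgeR 4.0.16 on the recovered reads (quasi-likelihood, TMM), a block on the replicate number and leaving out each library. The limma step was tested on simulated data. Figures were drawn with matplotlib 3.10.9 in Python 3.11.15.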

Additional observations from a re-analysis of the deposited data

Results flagged for a closer look

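In 161 sets of libraries over 25 of the genes, each set with a highest value of at least 10, 17 held 1 library far from the others by Dixon's criterion. For normally distributed values chance gives this in about 1 in 20 sets. These values were on the deposited scale, and sets were kept by their highest value, so the share that chance gives here is not known. Control morulae and control blastocysts had numbers of libraries that the criterion did not cover. At the 2-cell stage these were control library 12 for Psme4 (1303, group median 795), Psmd11 (386, median 138) and Psmb11 (28.7, median 3.13), control library 9 for Psmb9 (12.4, median 0), light library 12 for Psma7 (106, median 33.6), light library 14 for Psmc6 (186, median 37.1) and Psmc3ip (139, median 68.0), and light library 16 for Psme2 (58.3, median 18.3). At the 4-cell stage they were control library 1 for Psme2 (46.0, median 13.0) and Psme2b (10.2, median 0.683), control library 2 for Psma8 (13.1, median 0) and light library 11 for Psmf1 (66.3, median 38.0). Light 8-cell library 8 stood apart for Psmc3ip (66.2, median 20.7) and light morula library 1 for Psmb9 (25.3, median 0). In light blastocysts library 13 stood apart for Psmb5 (195, median 79.2), and library 23 for Psmd10 (25.0, median 10.2) and Psme4 (70.6, median 30.4).

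The change between stages differed between light and control by limma's interaction term for 15 pairs of gene and step. From the 2-cell to the 4-cell stage the differences, light minus control on the log2 scale, were -2.14 for Psma4, -2.47 for Psma5, -1.83 for Psmb2, -2.80 for Psmb4, -2.79 for Psmc2, -2.02 for Psmd11, -2.84 for Psmd12, -2.72 for Psmc3ip, 1.74 for Psme3 and 2.08 for Psme4. From the 4-cell to the 8-cell stage they were 1.82 for Psma7, 1.66 for Psmb2, 1.41 for Psmd4, 1.38 for Psmd7 and 1.73 for Psmd11.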

How the results depend on the processing

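Over the 17 counts of called members, 385 alternatives were run, of which 290 stayed within 1.5 times the count reported, and no call of a named member reversed (723 kept, 88 lost). Shares of all genes called under these alternatives are not given here, so the counts cannot be set against them. The counts that moved are these, and where no cause is given it was not tested. Light against control: 4-cell 0, with 1 by median ratio scaling, 1 by CPM and 2 by edgeR; blastocyst 1, with 0 at a pseudocount of 0.1, without the filter, by median ratio scaling, by CPM and by edgeR. Control steps: 4-cell to 8-cell 12, with 0 by median ratio scaling, CPM and edgeR; morula to blastocyst 1, with 2 by median ratio scaling and 3 by CPM. Light steps: 2-cell to 4-cell 16, with 26 by edgeR; 4-cell to 8-cell 2, with 1 at a pseudocount of 0.1, 1 without the filter and 0 by the other scalings and edgeR; 8-cell to morula 3, with 7 by median ratio scaling and by CPM; morula to blastocyst 11, with 5 without the filter and by median ratio scaling and 4 by CPM and edgeR. Interactions: 2-cell to 4-cell 10, with 6 at a pseudocount of 0.1 and 17 by edgeR; 4-cell to 8-cell 5, with 11 by edgeR; 8-cell to morula 0, with 1 by median ratio scaling, CPM and edgeR.

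Replicate numbers did not pair the libraries: deviations of same-numbered libraries from their group means correlated between -0.07 and 0.07. With the number as a block, 0 members were called in the comparisons where it could be fitted, which moved the counts of light against control at the 2-cell stage (17), of the control steps from 4-cell to 8-cell (12), 8-cell to morula (10) and morula to blastocyst (1), and of the light steps from 2-cell to 4-cell (16), 4-cell to 8-cell (2) and 8-cell to morula (3). Few libraries share a number, so that the block leaves few of them to compare.

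With 1 library left out, counts of called members lay between 11 and 23 (light against control, 2-cell), 0 and 4 (4-cell), 7 and 12 (8-cell), 0 and 0 (morula) and 0 and 1 (blastocyst). In the control steps they lay between 34 and 38, 6 and 19, 6 and 14, and 0 and 4 in order of stage, with 4 without control morula library 1. In the light steps they lay between 13 and 19, 1 and 3, 2 and 5, and 4 and 14, with 5 from the 8-cell stage to the morula without light 8-cell library 7 or 11 or light morula library 3 or 12. For the interactions they lay between 5 and 16, 3 and 12, 0 and 2, and 0 and 0, with 2 from the 8-cell stage to the morula without control morula library 1.

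The median log2 fold change of all genes moved by over 0.1 between scalings. Relative to it the members lay 1.06 higher in light at the 2-cell stage on the deposited scale and 0.94, 1.01 and 1.05 higher by median ratio scaling, CPM and edgeR, and at the 8-cell stage 0.55, 0.50, 0.52 and 0.53 higher. Depth limits the tissue-restricted genes, for which 0 reads in a library allow up to 9.43 CPM in the shallowest.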
